A study of Mus musculus with 4 samples.

Results

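The genes described here carry the interferon circuit of the macrophage. They are 9 of the 24235 genes in the tables, chosen by function: the ligand Ifnb1, the receptor chains Ifnar1, Ifnar2, Ifngr1 and Ifngr2, the kinases Jak1, Jak2 and Tyk2, and the inhibitor Socs1. Each was found by its symbol after RefSeq transcripts were summed per gene. The macrophages were grown with M-CSF from bone marrow of C57BL/6 mice aged 7 weeks, either wild type (WT) or with the Sema6D-/- genotype, which removes a membrane semaphorin. Each genotype gave 1 library without LPS (titles ending in "non") and 1 library after 4 h with LPS at 100 ng/ml; LPS is a bacterial cell wall component that macrophages sense through TLR4. The treatment note of every sample mentions LPS, and "non" was read as unstimulated. The labels do not give the number of animals, any pooling, or the part of Sema6d that was removed. With 1 library per group no comparison has a replicate check, no p-value was computed, and every statement holds for these 4 libraries.

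LPS receptors of macrophages signal through the adaptors TRIF and TRAM to the factor IRF3 and, with NF-kB, switch on Ifnb1. Interferon beta leaves the cell and binds a receptor built from IFNAR1, which holds the kinase TYK2, and IFNAR2, which holds JAK1. The kinases phosphorylate STAT proteins, which join IRF9 and switch on antiviral genes. Interferon gamma uses IFNGR1 with JAK1 and IFNGR2 with JAK2. SOCS1 is a product of this signalling that blocks the kinases and so closes the loop.

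Depth was estimated at 17.3 M to 23.6 M fragments per library. Between 9682 and 10057 genes stood at 1 FPKM or above in each (a fragment count corrected for transcript length and depth, as deposited by the authors). Macrophage markers were abundant, with all 8 on the list above 1 FPKM and Csf1r at 644 to 1048 FPKM, while the T cell, natural killer cell and erythroid lists had no marker at 1 FPKM. Sema6d was near the detection limit at 0.219 to 0.592 FPKM and was not lower in the libraries labelled Sema6D-/- (0.563 and 0.592 FPKM) than in WT (0.304 and 0.219 FPKM), so their genotype is given below as a label only. The genotypes also differed in sex-linked RNA, with Xist at 22.3 and 21.4 FPKM in WT and at most 0.0333 FPKM in the libraries labelled Sema6D-/-, where the Y-linked Eif2s3y measured 33.5 and 50.4 FPKM. Neutrophil and progenitor markers, 6 of 7 of them above 1 FPKM, summed to 814 and 1253 FPKM in WT and to 230 and 355 FPKM in the libraries labelled Sema6D-/-. Their part in the genotype differences below was not tested, and sex and genotype cannot be told apart. In bulk RNA a change in the number of cells of a type and a change in RNA per cell cannot be told apart either.

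The promoters of Ifnb1 and Socs1, the genes whose levels differed most between the libraries with and without LPS, are shown with that of Jak2, the next in order. Each line gives the 250 bases before the RefSeq start site on build GRCm38.p6, read 5′ to 3′ on the strand of the gene. Capitals mark matches on either strand to the interferon regulatory factor core AANNGAAA, the NF-kB motif (GGGA and TTCC with any 2 bases between them) and the STAT motif TTCNNNGAA.
Ifnb1 (chr4:88522795-88523044, minus strand): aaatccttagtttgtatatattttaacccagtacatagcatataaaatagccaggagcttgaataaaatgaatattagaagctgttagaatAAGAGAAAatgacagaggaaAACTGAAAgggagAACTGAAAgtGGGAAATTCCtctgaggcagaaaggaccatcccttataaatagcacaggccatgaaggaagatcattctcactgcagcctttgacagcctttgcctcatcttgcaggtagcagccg
Socs1 (chr16:10785537-10785786, minus strand): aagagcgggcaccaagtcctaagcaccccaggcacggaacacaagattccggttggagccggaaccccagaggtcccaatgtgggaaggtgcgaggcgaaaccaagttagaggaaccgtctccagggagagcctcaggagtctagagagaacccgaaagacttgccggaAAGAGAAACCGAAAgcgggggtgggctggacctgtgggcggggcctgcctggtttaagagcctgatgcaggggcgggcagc
Jak2 (chr19:29251553-29251802, plus strand): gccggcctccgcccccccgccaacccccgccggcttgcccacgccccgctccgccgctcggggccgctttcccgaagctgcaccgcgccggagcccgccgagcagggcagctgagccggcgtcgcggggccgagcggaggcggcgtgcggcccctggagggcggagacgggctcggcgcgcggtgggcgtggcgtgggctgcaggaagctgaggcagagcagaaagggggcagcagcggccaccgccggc

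The Ifnb1 window holds 3 regulatory factor cores, at 159, 139 and 126 bases before the start counted to the first base, followed at 116 bases by the NF-kB match. This is the stretch known as the virus response enhancer of the gene. The Socs1 window holds 2 cores, at 81 and 75 bases before the start, which overlap each other. The Jak2 window holds none of these motifs in these letters, and neither do those of Ifnar1, Ifngr1, Jak1 and Tyk2. Ifngr2 has an NF-kB match 75 bases and Ifnar2 a STAT match 214 bases before the start. Across 32851 promoter windows of the same length, 21.3% hold at least 1 regulatory factor core, 4.20% hold 2 or more, 1.21% hold the NF-kB motif and 7.02% the STAT motif. These are matches of letters, and binding was not measured.

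Without LPS the receptor chains Ifngr2, Ifnar2 and Ifngr1 were the most abundant of the 9 transcripts and Ifnb1 the least. In WT the order of FPKM ran from Ifngr2 (90.5) through Ifnar2 (79.9), Ifngr1 (58.3), Jak1 (52.6), Ifnar1 (24.7), Jak2 (21.1), Tyk2 (14.6) and Socs1 (2.70) to Ifnb1 (0.229). The library labelled Sema6D-/- without LPS had the same order. With LPS Socs1 and Jak2 led the order in both genotypes, while Ifnb1 remained last. Tyk2 and Ifngr1 exchanged places between the genotypes with LPS. The 95% counting intervals of neighbours in the order did not overlap in any library, and these intervals cover counting error alone.

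**Figure D1:**
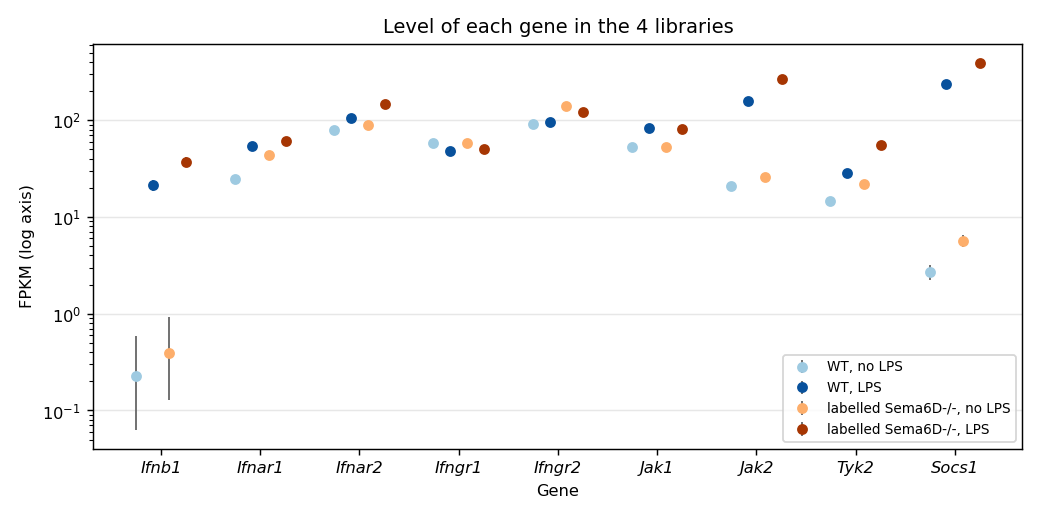
FPKM of each of the 9 genes (log axis) in the 4 libraries, 1 point per library, with 95% exact Poisson intervals on estimated fragments as bars where they exceed the symbol. Ifnb1, Jak2 and Socs1 stand far higher in both libraries with LPS, whereas Ifngr1 and Ifngr2 stay between 48.4 and 140 FPKM throughout.

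Interferon beta was nearly silent without LPS and clearly present with it. Ifnb1, which encodes interferon beta, measured 0.229 FPKM in WT without LPS, 21.2 in WT with LPS, 0.394 in the library labelled Sema6D-/- without LPS and 37.3 in that with LPS. Both libraries with LPS were high and both without were low. The low values rest on 4 and 5 estimated fragments, against 240 and 348 with LPS. The ratio of LPS to no LPS was 92.9-fold (95% counting interval 35.8 to 344) in WT, and 94.6-fold (40.2 to 293) in libraries labelled Sema6D-/-. With LPS the library labelled Sema6D-/- held 1.76-fold more Ifnb1 (1.49 to 2.08) than WT. Without LPS the genotype ratio of 1.72 had an interval of 0.371 to 8.69, too wide at this depth to show a difference.

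Other interferons were all but missing. Of 20 further ligand genes, including the alpha family, Ifng and the lambda interferons, 0 reached 1 FPKM in any library and 12 were listed at 0 in all 4. The highest value was 0.410 FPKM, for Ifna4 in the library labelled Sema6D-/- with LPS. Ifng, the ligand of the IFNGR chains, measured at most 0.239 FPKM. The alpha genes are close copies of each other, so reads may have been divided between them. The listed markers of plasmacytoid dendritic cells, which are known for making alpha interferons, were mixed. Siglech measured 0.156 to 0.896 FPKM, Ccr9 0.108 to 0.661 FPKM and Spib 0.426 to 1.14 FPKM. Tcf4 measured 10.8 and 12.0 FPKM without LPS and 29.2 and 52.6 FPKM with LPS (WT and labelled Sema6D-/-). Of the 4 markers on that list Tcf4 and Spib reached 1 FPKM, and the summed level was 11.5 and 13.3 FPKM without LPS and 31.1 and 54.9 FPKM with LPS; their part in the level of Ifnb1 was not tested.

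The list of genes that can induce Ifnb1, which holds sensors of RNA and DNA beside the TLR4 route, was mixed. Of 26 measured members of the induction list, 12 were at least 2-fold higher and 0 lower in WT, and 14 were higher and 1 lower in the libraries labelled Sema6D-/-, with median log2 ratios of 0.81 and 1.25. Among all genes tested 10.7% were higher and 4.85% lower in WT, and 14% and 8.81% in the other genotype. With all libraries at the same total, 8 list members were higher in each genotype, and 1 in WT and 4 in the other were lower. At that scaling 713 of 10533 genes were higher and 1502 lower in WT, and 745 and 3008 of 10507 in the other. Here and below a log2 ratio without further note is that of FPKM + 1, and the median over all genes tested was -0.00 in WT, and 0.01 in libraries labelled Sema6D-/-. The RNA sensor Ifih1 had the largest log2 ratios (4.33 and 4.36), followed by the transcription factor Irf1 (3.68 and 3.05). The RNA sensor Ddx58 had 2.94 and 2.43, and Tank, a scaffold of the kinase TBK1, 2.16 and 2.87. Irf7, which amplifies interferon production, had 2.06 and 1.82. The TLR4 route was itself mixed, below 2-fold at Tlr4 (0.25 and 0.37) and the adaptor Ticam2, or TRAM (0.43 and 0.17). On the same list Cd14 (1.41 and 1.33), Tbk1 (1.14 and 1.53) and Ikbke (1.52 and 1.19) were past 2-fold in both genotypes as deposited. Irf3, the factor that starts Ifnb1 transcription, had -0.39 and -0.54, and the adaptor Ticam1 (TRIF) -0.05 and 0.05. Mavs, the mitochondrial adaptor of the RNA sensors, had -0.999 and -1.40, just inside the size rule in WT.

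The receptor chains divided by chain and by genotype. Ifnar1, the TYK2-binding chain, measured 24.7 FPKM in WT without LPS, 54.6 in WT with LPS, 44.1 in the library labelled Sema6D-/- without LPS and 61.6 in that with LPS. WT without LPS stood apart as the low library. The LPS ratio was 2.21-fold (2.11 to 2.32) in WT, and 1.40-fold (1.33 to 1.46) in libraries labelled Sema6D-/-. The genotype ratio was 1.79-fold (1.70 to 1.88) without LPS and 1.13-fold (1.08 to 1.18) with LPS. The call in WT depended on scaling, since rescaling each library to the same total turned the log2 ratio of 1.11 into 0.60, and in the libraries labelled Sema6D-/- that of 0.47 into -0.27.

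Ifnar2, the JAK1-binding chain, measured 79.9 and 106 FPKM in WT without and with LPS and 88.6 and 146 FPKM in the libraries labelled Sema6D-/-. It was higher with LPS in both genotypes as deposited, at 1.33-fold (1.26 to 1.39) and 1.64-fold (1.56 to 1.73), and below 2-fold in each. Both ratios turned slightly negative at equal library totals, at -0.12 and -0.04 on the log2 scale. The gene makes by alternative splicing a full-length chain that spans the membrane and a short form that is secreted. The RefSeq variant with the shorter coding part (744 nt without the stop codon, against 1539 nt) held 73.9% of the gene's FPKM in WT without LPS (95% counting interval 72.6 to 75.2) and 71.7% with LPS (70.2 to 73.1). It held 75.7% (74.3 to 77.1) and 73.1% (71.8 to 74.4) in the libraries labelled Sema6D-/-. The share was therefore slightly lower with LPS in both genotypes, within 71.7 to 75.7% across libraries in which the total varied from 79.9 to 146 FPKM. The intervals with and without LPS overlapped in both genotypes, which does not show that the shares were equal. They leave out error in the division of fragments between variants by the authors' software, which was not examined. A long non-coding gene, Gm36587, overlaps Ifnar2 in RefSeq, and whether strand was used in the counting was not stated.

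As deposited, the interferon gamma receptor chains differed little with LPS. Ifngr1, the ligand-binding chain, measured 58.3 and 48.4 FPKM in WT without and with LPS and 58.5 and 50.8 FPKM in the libraries labelled Sema6D-/-. It was the member with the lowest LPS ratio in both genotypes, at 0.830-fold (0.784 to 0.879) and 0.867-fold (0.814 to 0.923), below 1 under all scalings tried. As deposited, the genotype ratios were 1.00 (0.954 to 1.06) without LPS and 1.05 (0.981 to 1.12) with LPS, and at equal library totals the log2 ratio with LPS was -0.16. Ifngr2, the JAK2-binding chain, measured 90.5 and 96.4 FPKM in WT, and 140 and 123 FPKM in libraries labelled Sema6D-/-. Both of the latter lay above both WT values. Its LPS ratio was 1.06-fold (1.03 to 1.10) in WT, and 0.880-fold (0.854 to 0.906) in libraries labelled Sema6D-/-, and the WT ratio lay below 1 at equal library totals and with the median gene centred. At equal library totals the log2 ratios of Ifngr2 were -0.44 and -0.93, so the size of the LPS difference of both chains depends on scaling.

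Ifnar2, Ifnar1 and Ifngr2 are neighbours on mouse chromosome 16, in the order Ifnar2, Il10rb, Ifnar1, Ifngr2 with no other protein-coding gene between them. Il10rb encodes a receptor chain shared by IL-10 and the lambda interferons. It measured 109 and 106 FPKM in WT, and 102 and 111 FPKM in libraries labelled Sema6D-/-, the narrowest range of the 4 genes. Taken within each library, and so free of scaling between libraries, the ratio of Ifnar1 to Il10rb was 0.227 in WT without LPS and 0.517 with LPS. It was 0.434 and 0.555 in the libraries labelled Sema6D-/-. The ratio of Ifnar2 to Il10rb went from 0.736 to 1.00 in WT and from 0.872 to 1.31 there. The ratio of Ifngr2 to Il10rb was 0.834 and 0.914 in WT, and 1.38 and 1.11 in libraries labelled Sema6D-/-. These neighbours therefore did not share 1 pattern, and Ifnar1 differed most between WT with and without LPS. Ifnar1 against Ifnar2 measured 0.309 and 0.515 in WT, and 0.498 and 0.423 in libraries labelled Sema6D-/-, so the ratio was higher with LPS in WT and lower with LPS in the other genotype.

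**Figure D2:**
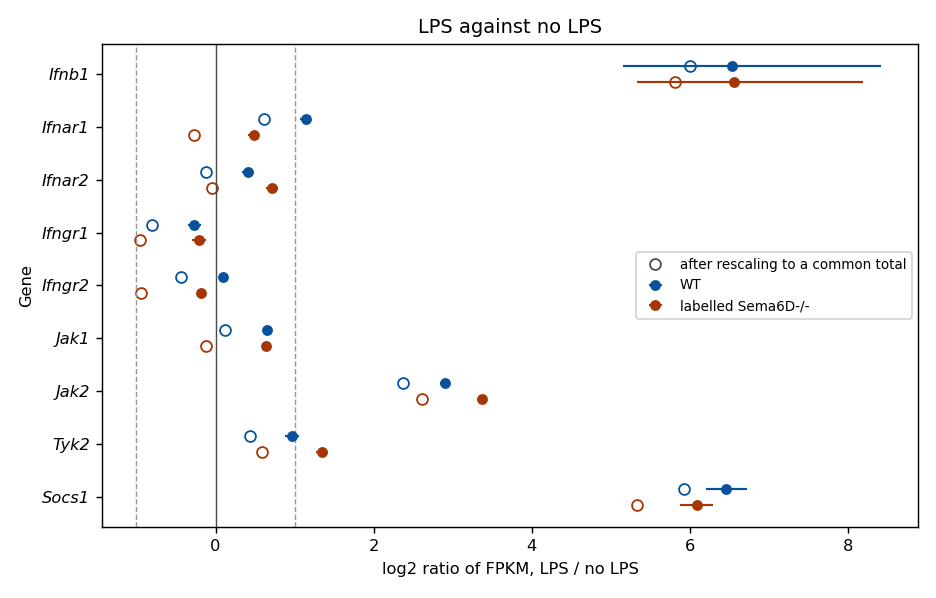
log2 ratio of FPKM with LPS to FPKM without LPS (x axis) for each of the 9 genes in WT and libraries labelled Sema6D-/-, without an added 1; bars are 95% counting intervals, open circles the same ratios with all libraries brought to the same total, and dashed lines 2-fold. Ifnb1, Jak2 and Socs1 lie beyond 2-fold in both genotypes on either scale. The open circles of Ifnar1 and Jak1 lie above 0 in WT and below it in libraries labelled Sema6D-/-. Those of Ifnar2, Ifngr1 and Ifngr2 lie below 0 in both genotypes.

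Among the kinases Jak2 stood out. Jak2, which serves IFNGR2 and many cytokine receptors, measured 21.1 FPKM in WT without LPS, 157 with LPS, 25.9 in the library labelled Sema6D-/- without LPS and 268 with LPS. Both libraries with LPS were high and did not overlap those without. The LPS ratio was 7.47-fold (7.18 to 7.76) in WT, and 10.3-fold (9.94 to 10.8) in libraries labelled Sema6D-/-. Its size depended on scaling. Without the added 1, the log2 ratios of 2.90 and 3.37 became 2.37 and 2.61 at equal library totals. The genotype ratio was 1.23-fold (1.17 to 1.29) without LPS and 1.70-fold (1.67 to 1.74) with LPS. As divided by the authors' software, the second RefSeq variant of Jak2 was at 0 estimated fragments in each library. The upper counting limit was at most 0.134% of the gene, leaving out error in that division, which was not examined.

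Tyk2, the kinase held by IFNAR1, measured 14.6 and 28.6 FPKM in WT without and with LPS and 22.0 and 55.9 FPKM in the libraries labelled Sema6D-/-. The library labelled Sema6D-/- with LPS was the high one. The LPS ratio was 1.95-fold (1.84 to 2.07) in WT, just under the size rule, and 2.54-fold (2.41 to 2.68) in the libraries labelled Sema6D-/-, just over it. The latter call was lost at equal library totals, where the log2 ratio of 1.31 became 0.57. Its genotype ratio with LPS, 1.96-fold (1.87 to 2.06), was the largest of the 9 genes in that comparison. A minor variant with a longer coding part (3621 nt against 3552 nt) was at 0 estimated fragments of 2063 in WT without LPS, at most 0.176% of the gene by its counting interval. It held 2.39% (1.83 to 3.02) in WT with LPS, and 5.47% (4.58 to 6.49) and 3.17% (2.66 to 3.73) in the libraries labelled Sema6D-/- without and with LPS, on 63 to 136 estimated fragments. These intervals leave out error in the division of fragments between variants by the authors' software, which was not examined.

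Jak1, shared by both interferon receptors, measured 52.6 and 82.5 FPKM in WT, and 52.9 and 82.2 FPKM in libraries labelled Sema6D-/-. As deposited, the genotype ratios were 1.01 (0.972 to 1.04) without LPS and 0.996 (0.964 to 1.03) with LPS, and at equal library totals the log2 ratio with LPS was -0.23, beyond its counting error. The LPS ratios of 1.57-fold (1.52 to 1.62) and 1.55-fold (1.498 to 1.61) were below the size rule, and equal library totals turned the second of them negative. Jak3, a kinase of lymphoid cytokine receptors, was the least abundant member of the family at 6.31 to 13.8 FPKM.

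Within each library the make-up of the JAK family differed with LPS, and these shares do not depend on scaling between libraries. Jak1 made up 55.6% of the summed FPKM of the 4 genes in WT without LPS and 29.6% with LPS, and Jak2 22.3% and 56.4%. In the libraries labelled Sema6D-/- Jak1 made up 48.6% and 19.6%, and Jak2 23.8% and 63.8%. The ratio of Jak2 to Jak1 was 0.401 and 1.91 in WT, and 0.489 and 3.26 in libraries labelled Sema6D-/-. The summed level was 94.6 and 279 FPKM in WT and 109 and 420 FPKM there.

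**Figure D3:**
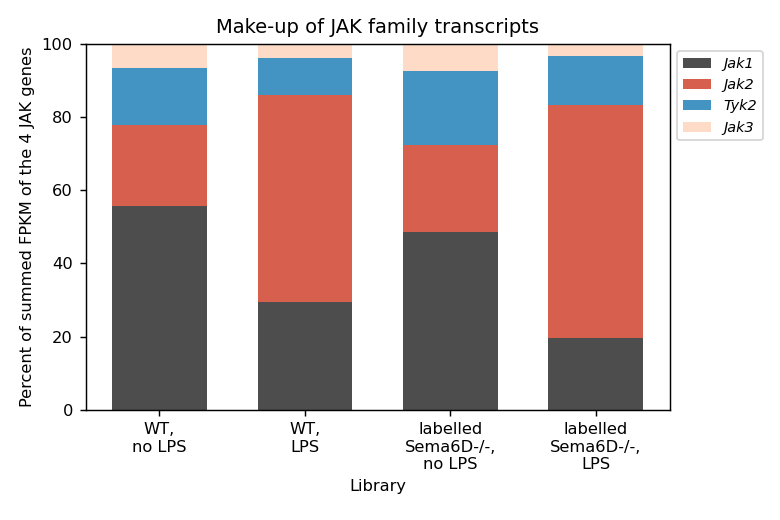
Share of the summed FPKM of Jak1, Jak2, Tyk2 and Jak3 (y axis, percent) taken by each gene in the 4 libraries (x axis), 1 library per bar. Jak1 is the largest share in both libraries without LPS and Jak2 in both with LPS, at 56.4% and 63.8%.

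Socs1, the inhibitor of the JAK kinases, went from the second lowest of the 9 genes to the highest. It measured 2.70 FPKM in WT without LPS, 238 with LPS, 5.71 in the library labelled Sema6D-/- without LPS and 389 with LPS. Both libraries with LPS were far above both without. The LPS ratio was 88.1-fold (73.9 to 106) in WT, and 68.0-fold (59.0 to 78.8) in libraries labelled Sema6D-/-. Here too the size depended on scaling. Without the added 1, the log2 ratios of 6.46 and 6.09 became 5.93 and 5.33 at equal library totals. The genotype ratio was 2.11-fold (1.68 to 2.66) without LPS, on 127 and 195 estimated fragments, and 1.63-fold (1.58 to 1.68) with LPS. The added 1 brought the first of these under the size rule, at a log2 ratio of 0.86. Relative to Jak2 in the same library Socs1 stood at 0.128 and 1.51 in WT and at 0.221 and 1.45 in the libraries labelled Sema6D-/-.

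The 2 RefSeq variants of Socs1, which have the same coding length of 636 nt, took different shares. The less abundant one held 40.8% of the gene's FPKM in WT without LPS (95% counting interval 32.3 to 50.02) and 5.83% with LPS (5.31 to 6.40). In the libraries labelled Sema6D-/- it held 18.7% (13.7 to 25.1) and 8.85% (8.30 to 9.43). The share was lower with LPS in both genotypes. The other variant measured 1.60 and 224 FPKM in WT, and 4.65 and 354 FPKM in libraries labelled Sema6D-/-. The division between variants is the authors' software's, and how it treats shared exons was not examined. The intervals leave out error in that division.

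Counted together, in WT 4 of the 9 genes were higher with LPS by 2-fold or more (Ifnb1, Ifnar1, Jak2 and Socs1) and 0 were lower, where 10.7% of 10375 genes tested were higher and 4.85% lower. In the libraries labelled Sema6D-/- they were 4 of 9 higher (Ifnb1, Jak2, Tyk2 and Socs1) and 0 lower, where 14% of 10398 genes were higher and 8.81% lower. Without LPS Ifnb1 was below 1 FPKM in both genotypes (0.229 and 0.394 FPKM). It entered both counts only through the library with LPS and could not be called lower, so the counts were partly set by the filter. For the 9 genes the median log2 ratio was 0.92 in WT, and 0.71 in libraries labelled Sema6D-/-, against -0.00 and 0.01 over all genes. At equal library totals 3 of the 9 were higher in each genotype, Ifnb1, Jak2 and Socs1, and the median over well measured genes (5 FPKM or more in all libraries) moved from 0.11 to -0.39 in WT and from 0.15 to -0.56 in the libraries labelled Sema6D-/-.

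With the added 1, no member reached 2-fold between genotypes; without it, Socs1 without LPS did (2.11-fold). Without LPS 8 of the 9 passed the filter of 1 FPKM, Ifnb1 being below it, and 0 of 8 were higher or lower, where 2.51% of 10322 genes were higher and 2.19% lower. With LPS 0 of 9 were higher or lower, where 3.09% of 10078 genes were higher and 3.18% lower. At 1.5-fold 3 of 8 were higher without LPS (Ifnar1, Ifngr2 and Socs1) and 0 lower, beside 6.96% and 5.82% of all genes. At 1.5-fold with LPS 4 of 9 were higher (Ifnb1, Jak2, Tyk2 and Socs1) and 0 lower, beside 10% and 7.91% of all genes. The medians of the members were 0.42 without LPS and 0.46 with LPS, and those of all genes 0.04 and 0.04. At equal library totals the log2 genotype ratios with LPS were lower. Those of Ifnb1 (0.56), Jak2 (0.53) and Socs1 (0.48) then lay below 1.5-fold and that of Tyk2 (0.72) above it, while Ifnar1 (-0.05), Ifngr1 (-0.16) and Jak1 (-0.23) were negative. Neutrophil markers were lower in the libraries labelled Sema6D-/- by the sums given above, and Xist and Y-linked RNA differed, and the B cell marker Cd79b measured 12.1 and 6.99 FPKM in WT against 3.13 and 0.616 FPKM, so genotype, sex and these markers move together here.

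**Figure D4:**
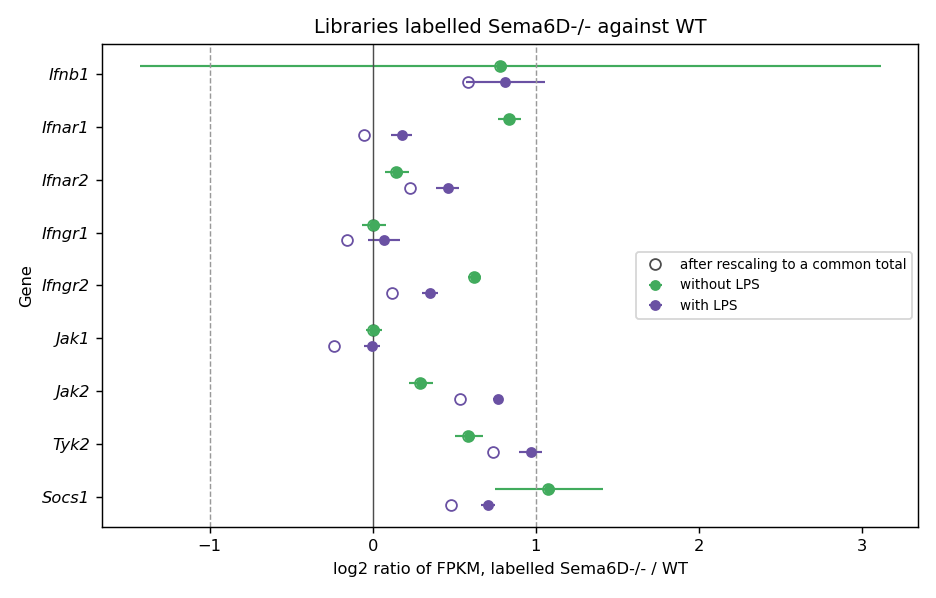
log2 ratio of FPKM in the library labelled Sema6D-/- to WT (x axis) for each of the 9 genes, without and with LPS, without an added 1; bars are 95% counting intervals, open circles the ratios at equal library totals, and dashed lines 2-fold. Jak1 and Ifngr1 lie at 0 without LPS, Ifnar1, Ifngr2, Tyk2 and Socs1 lie above it, and Tyk2 has the highest value with LPS.

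The LPS responses of the genotypes were compared as their difference, libraries labelled Sema6D-/- minus WT, on the log2 scale. No member differed by 2-fold, and of 10680 genes 1.83% lay past 2-fold upward and 1.25% downward. Ifnar1 had the lowest difference, at -0.66 (95% approximate counting interval -0.76 to -0.57, without the added 1); its genotype ratio was 1.79-fold without LPS and 1.13-fold with it. Ifngr2 had -0.28 (-0.34 to -0.21). Jak2 had 0.47 (0.39 to 0.55), Tyk2 0.38 (0.27 to 0.49) and Ifnar2 0.31 (0.21 to 0.41). Jak1 (-0.01, interval -0.08 to 0.05) and Ifngr1 (0.06, interval -0.06 to 0.18) had intervals that include 0. At equal library totals the differences, with the added 1, were -0.24 for Jak1, -0.16 for Ifngr1 and 0.09 for Ifnar2. Those of Jak2 (0.25), Tyk2 (0.16), Ifngr2 (-0.50) and Ifnar1 (-0.87) were lower than as deposited too, so the size of these differences depends on scaling. For Ifnb1 the difference was 0.60 with the added 1 and 0.03 without it, with an interval of -1.89 to 1.95, so the fragments without LPS do not show whether the responses differ. Socs1 had -0.37 (-0.70 to -0.05) without the added 1 and -0.15 with it. The 2 LPS comparisons use separate libraries, while each genotype comparison shares a library with both.

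The STATs that the kinases act on were higher with LPS in part. Of 8 genes in the list of STATs and IRF9, 4 were at least 2-fold higher in WT, and 5 in libraries labelled Sema6D-/-, with 0 lower in each and medians of 1.19 and 1.46. Beside them 10.7% of all genes were higher and 4.85% lower in WT, and 14% and 8.81% in the other genotype. Stat2 measured 37.4 and 250 FPKM in WT, and 75.9 and 277 FPKM in libraries labelled Sema6D-/-, with log2 ratios of 2.71 and 1.85. Stat2 was also 2-fold higher in the library labelled Sema6D-/- without LPS (1.00). Irf9, a DNA-binding partner of STAT proteins, had 0.99 and 0.99, just inside the size rule. Stat3 (1.40 and 2.37) and Stat5a (1.77 and 2.10) were higher too, and Stat6, which serves IL-4, had -0.22 and -0.51. At equal library totals 3 and 4 of the 8 were higher, and 0 and 1 lower. Of all 10533 genes tested in WT 713 were then higher and 1502 lower, and of 10507 in the other genotype 745 and 3008.

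Among the other brakes on JAK-STAT signalling, 7 of 19 measured genes were higher with LPS in WT and 0 lower, and 8 were higher and 1 lower in libraries labelled Sema6D-/-. As deposited, 10.7% of all genes were higher and 4.85% lower in WT, and 14% and 8.81% in the other genotype. At equal library totals 5 of the list were higher and 3 lower in WT, and 6 and 4 in the other genotype. Of all 10533 genes tested in WT 713 were then higher and 1502 lower, and of 10507 in the other 745 and 3008. The median log2 ratios of 0.32 and 0.25 became -0.18 and -0.38, where those of all genes were -0.47 and -0.65. Socs3, which restrains IL-6 type receptors, led with 4.47 and 4.58. Usp18, which binds IFNAR2 and dampens its signalling, had 4.23 and 3.64, and the ubiquitin-like modifier Isg15 3.63 and 3.06. Cish, the founding member of the SOCS family, had 2.35 and 3.36, at 0.248 and 5.35 FPKM in WT, and 0.524 and 14.6 FPKM in libraries labelled Sema6D-/-. Being below 1 FPKM without LPS in both genotypes, Cish entered the list counts as deposited only through the libraries with LPS. The phosphatase Ptpn2, which acts on JAK1, had 1.47 and 2.12. The remaining SOCS genes ranged from Socs5 (-0.56 and -0.58) to Socs7 (1.55 and 1.97).

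Downstream of the receptors nearly all listed targets were higher with LPS. All 16 targets led by the type I pathway were at least 2-fold higher in both genotypes, with medians of 4.39 in WT, and 3.64 in libraries labelled Sema6D-/-, and at equal library totals 15 and 12 were. Of all genes 10.7% were higher in WT and 14% in the other genotype as deposited. At equal library totals 713 of 10533 genes and 745 of 10507 genes were. Rsad2, an antiviral enzyme, had 6.10 and 5.43 and Ifit1, an RNA-binding antiviral protein, 5.35 and 4.33. Of the same 16 genes, 9 were at least 2-fold higher in the library labelled Sema6D-/- without LPS (median 1.16) and 0 of 16 with LPS (median 0.46), beside 2.51% and 3.09% of all genes. In that genotype comparison without LPS Ifnb1 itself rested on 4 and 5 fragments. Targets led by the interferon gamma pathway were higher for 13 of 13 in WT, and 13 of 14 in libraries labelled Sema6D-/-, with Gbp5, a GTPase, at 6.98 and 5.92. At equal library totals 11 of 13 were higher in each genotype, and 0 and 1 lower. In WT without LPS Cxcl9, Gbp4, Tgtp1, Ido1 and Nos2 were below 1 FPKM. They entered the WT count only through the library with LPS and could not be called lower, so that count was partly set by the filter. The same held in the libraries labelled Sema6D-/- for Cxcl9, Tgtp1 and Ido1, at 0.891, 0.374 and 0 FPKM without LPS. Between genotypes 4 of 11 of these were higher in the library labelled Sema6D-/- without LPS and 4 of 13 with LPS, the latter being the chemokine Cxcl9 (2.47), Nos2 (1.80), the GTPase Tgtp1 (1.39) and Gbp5 (1.25). Ciita, the master regulator of MHC class II and a classical target of interferon gamma, was the exception (not tested in WT, where it was below 1 FPKM), at 0.828 and 0.319 FPKM in WT, and 2.02 and 0.943 FPKM in libraries labelled Sema6D-/-. Several targets, among them Nos2 and Gbp5, also answer to NF-kB or to interferon beta, so the lists do not separate the receptors.

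**Figure D5:**
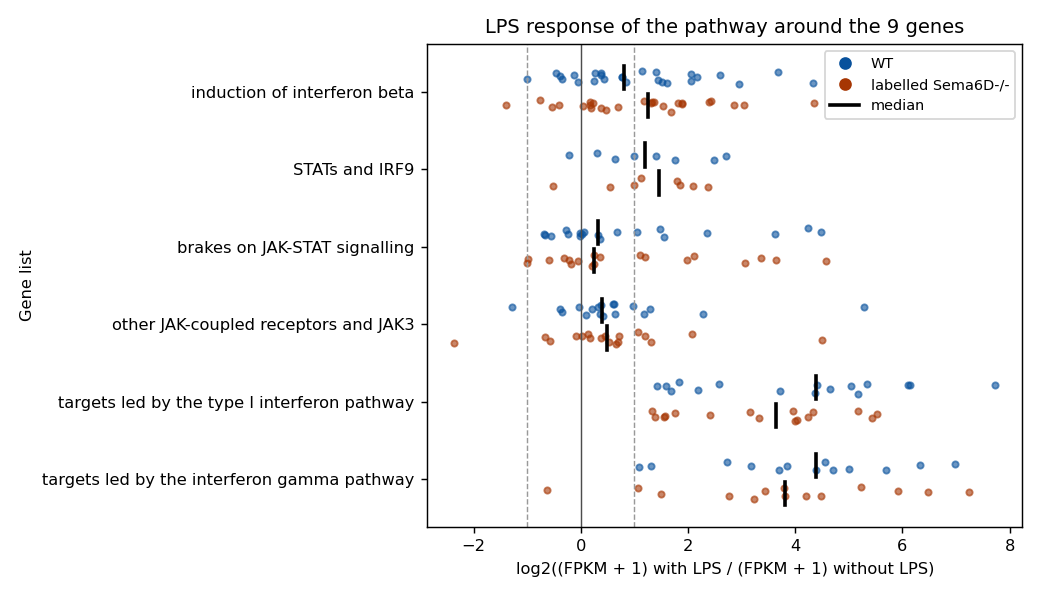
log2 ratio of FPKM + 1 with LPS to that without (x axis) for the genes of 6 pathway lists (y axis) at 1 FPKM or more in a library compared, 1 point per gene, in WT and libraries labelled Sema6D-/-; black bars are list medians and dashed lines 2-fold. The lists of interferon targets lie furthest right, with type I medians of 4.39 and 3.64, while the medians of brakes (0.32 and 0.25) and of other receptors (0.40 and 0.49) are the lowest of the 6 lists.

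The genes whose pattern over the 4 libraries lay nearest to each member were found by Euclidean distance of centred log2(FPKM + 1) among 7794 protein-coding genes. Nearest to Socs1 were Rsad2 and Cmpk2, antiviral enzymes, and the serpin Serpina3g, at distances of 0.31, 0.59 and 0.61. Nearest to Ifnb1 were Lhx2, a homeobox factor (0.21), Il15, a cytokine of lymphocytes (0.23), and Serpina3f (0.28). Il15 measured 6.44 and 165 FPKM in WT, and 8.82 and 268 FPKM in libraries labelled Sema6D-/-. Nearest to Jak2 was Ikzf1, the factor Ikaros (0.09), at 23.9 and 167 FPKM in WT and 29.5 and 307 FPKM there. Luzp1 lay nearest to Ifnar1 (0.09), Mecr to Ifnar2 (0.03), Guk1 to Ifngr2 (0.03), Ik to Jak1 (0.02) and Il1rap, a co-receptor of IL-1, to Tyk2 (0.10). With 4 libraries many genes lie close to members that vary little, so small distances say least for Jak1 and the IFNGR chains.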

How the data were processed

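The authors deposited FPKM values, 1 per RefSeq transcript and library, for 34487 transcripts in each of 4 libraries made with a stranded mRNA kit per the labels' protocols. The build was mm9, and the software comprised Cuffnorm 2.2.1, SAMtools 0.1.19, TopHat2 2.0.13 and Bowtie2 2.2.3, per the submitters' processing notes; their options and the scaling between libraries are not given in the sources used here. RefSeq on GRCm38 named 34163 transcripts, GENCODE vM21 a further 187, and 137 without a name were left out, and transcripts were summed per gene. Promoter sequences are RefSeq's, on GRCm38.p6, and all 9 members matched; no position was carried to mm9. Motifs were chosen with these sequences in view.

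Calls used log2((FPKM + 1)/(FPKM + 1)), a filter of 1 FPKM in at least 1 library compared and a 2-fold size rule. Fragments were estimated from the steps of low FPKM values (72.2 to 74.0% whole within a tolerance of 0.1, 20% by chance) with GENCODE transcript lengths, at most the RefSeq gene span. Relative to a per-million scale, steps and depths put the deposited values at 0.762 and 0.772 without LPS and 1.10 and 1.29 with LPS (WT and labelled Sema6D-/-), so LPS values stand 1.44 and 1.67 times higher than unstimulated ones by scaling. Intervals are 95% Clopper-Pearson or Poisson, and by the delta method for differences of responses. They cover counting error only and leave out variation between animals and error in the division of fragments between variants. The depth and ratio steps were tested on simulated data. Members, lists and the rule for named genes (all 9 members, up to 4 genes per list by mean LPS ratio plus Stat2, Irf9, Irf7, Il10rb and Jak3, and the 3 nearest patterns; 1 further gene is not reported here) were chosen with earlier results of these data known; other genes named from a list were chosen after their values were seen. Alternatives were an added 0.1 or none, no filter or 5 FPKM, a common total, median centring, the most abundant transcript, 1.5-fold and, added after seeing the data, a per-million-fragment scale. Python 3.11.15, pandas 2.3.3, NumPy 2.4.6, SciPy 1.17.1 and Matplotlib 3.10.9 were used.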

Additional observations from a re-analysis of the deposited data

Results flagged for a closer look

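Ifngr2, the JAK2-binding chain of the interferon gamma receptor, was the only member whose LPS log2 ratio had opposite signs in the genotypes as deposited. It was 0.09 in WT (90.5 to 96.4 FPKM) and -0.18 in the libraries labelled Sema6D-/- (140 to 123 FPKM), a difference of -0.27. With 1 library per group the difference was not tested, and the WT value became -0.44 at equal library totals and -0.02 with the median gene centred, so that both signs were then negative.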

How the results depend on the processing

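The number of members past 2-fold was 4 for LPS in each genotype and 3 or 4 over the alternatives that kept the 2-fold rule. At 1.5-fold the count was 6 in each genotype. For genotype without LPS it went from 0 to 1 with an added 0.1, with no added value and with the most abundant transcript (Socs1 in each case), and to 3 at 1.5-fold. At 1.5-fold it went from 0 to 4 for genotype with LPS and from 0 to 2 for the difference of the responses (Ifnb1 and Ifnar1). Of 44 log2 ratios of members, 34 kept their sign under every alternative and 10 turned, all of them below 2-fold; the alternatives that turned them were a common total, median centring and the per-million-fragment scale. The call of Ifnar1 in WT (1.11) ranged from 0.60 to 1.14 and that of Tyk2 in the libraries labelled Sema6D-/- (1.31) from 0.57 to 1.35. With LPS in WT 1114 genes were higher and 503 lower as deposited, against 713 and 1502 at a common total; in the libraries labelled Sema6D-/- 1453 and 916 became 745 and 3008. Depth limits Ifnb1 without LPS, at 4 and 5 fragments. No paired analysis was possible because each group had 1 library and the labels give no replicate numbers.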

Other observations

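Receptors for other cytokines that use the same kinases were mixed. Of 18 measured genes on that list LPS went with a level 2-fold or more higher for 4 and lower for 1 in WT, and for 5 and 1 in libraries labelled Sema6D-/-. Over all genes as deposited 10.7% were higher and 4.85% lower in WT, and 14% and 8.81% in the other. At equal library totals the list counts were 2 and 1 in WT and 2 and 3 in the other genotype. Of all 10533 genes tested in WT 713 were then higher and 1502 lower, and of 10507 in the other 745 and 3008. The list medians of 0.40 and 0.49 were -0.01 and -0.26 at equal library totals, where those of all genes were -0.47 and -0.65. Il15ra, the chain that presents IL-15, measured 0.938 and 74.0 FPKM in WT and 3.52 and 101 FPKM in the libraries labelled Sema6D-/- (log2 ratios 5.27 and 4.50). In WT Il15ra was below 1 FPKM without LPS, so it entered the WT count as deposited only through the library with LPS. Il13ra1, a chain of the IL-4 and IL-13 receptor, had 2.29 and 2.08, and Il10ra, the ligand-binding chain for IL-10, 1.18 and 1.30. Il6ra, the ligand-binding chain for IL-6, was the lower gene in both, at 26.6 and 10.4 FPKM in WT and 32.2 and 5.48 FPKM in the libraries labelled Sema6D-/- (-1.28 and -2.36). The lambda receptor chain Ifnlr1 measured at most 0.182 FPKM.

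Raver2, whose RefSeq span overlaps that of Jak1, measured 2.45 and 2.79 FPKM in WT without and with LPS and 0.424 and 0.222 FPKM in the libraries labelled Sema6D-/-.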
